A study of Mus musculus with 33 samples.

Results

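The genes described here are those of the cytosolic ribosomal proteins, the protein parts of the large (Rpl) and small (Rps) ribosomal subunits, followed in mouse liver as it regrew. Members were the genes whose array annotation gave a single symbol made of Rpl or Rps, a number and an optional short suffix such as a, x, l or l1, with pseudogenes and ribosomal protein kinases left out. The rule found 46 genes of the 18193 genes on the array with a single symbol, 24 of the large and 22 of the small subunit. The subunit was assigned by symbol alone, which does not show that each product is part of the finished ribosome. The mouse gene table of the GRCm38.p6 assembly holds 81 protein-coding genes of that symbol form, and those without a single-symbol probe set were not analysed here. A gene with several probe sets (groups of short probes read as 1 value) was represented by the set with the highest average signal on the 33 arrays. The rule used no measured difference between times.

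The livers came from mice taken at 0.25, 0.5 and 0.75 days (d), at 1, 1.5 and 2 d, at 3 and 4 d, and at 7 and 14 d after surgical removal of 70% of the liver (partial hepatectomy), and from mice at 0 d. Each of the 11 times had 3 livers that the labels call biological replicates, 33 arrays in all. The strain, age and sex of the mice are not given in the labels, no sham-operated group is among these samples, and all groups including 0 d carry the hepatectomy label. Values are log2 signals, so a difference of 1 is a doubling, and the ± beside a difference is the standard error of the limma fit with n = 3 per time.

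A ribosome is built from ribosomal RNA and a single copy of most ribosomal proteins, so cells tend to hold the members of the set in step. Most mammalian ribosomal protein messages belong to the TOP class: they start with a C followed by a run of pyrimidines (C or T in the DNA), and their translation is switched on by mTORC1 signalling through factors such as Larp1. After partial hepatectomy the remaining hepatocytes enlarge before they divide, and ribosome production is known to rise as they leave the resting state. A message level on an array does not show how much of that message is translated.

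Albumin lay between 14.60 and 14.80 on every array and the summed log2 level of 6 hepatocyte markers between 84.6 and 85.7. The labels name liver, and 1 field of them mentions fat tissue. The fat cell gene Adipoq ran from 2.76 to 7.07. Array medians over all probe sets lay between 5.32 and 5.38. The lowest correlations of an array with the others of its time were 0.970 for 0.5 d replicate 3 and 0.973 for 0.25 d replicate 1. The samples at 0.25, 0.5, 0.75 and 1.5 d carry a separate, later run of sample numbers, so a difference between those 4 times and the other 7 cannot be told apart from that division. Comparisons inside the later run and across its border are therefore given below.

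RefSeq start regions (GRCm38.p6) were matched for 40 members. Within 30 bases before to 50 bases after an annotated start, 32 of the 40 members (80%) held an unbroken run of at least 8 C or T bases on the coding strand, as did 31.1% of 14412 measured genes that are no member, 28.4% of 67 genes of mitochondrial ribosomal proteins and 32.3% of all 27025 genes of the table. Runs of A or G of that length, the same motif read on the other strand, stood in 15% of the members and 35.2% of all genes. The short motif CCGGAAG, on either strand of the 300 bases around the start, was found in 47.5% of the members, 37.3% of the mitochondrial ribosomal protein genes and 9.93% of all genes. Such matches describe letters near an annotated start and are not evidence of a bound factor. The windows below, 30 bases before and 20 bases after the annotated start, are those of members whose levels the results turn on, with the longest C or T run of at least 8 bases in capitals, in Rps27l the first of 2 equally long runs.
Rpl22l1, chr3:28805478-28805527, plus strand: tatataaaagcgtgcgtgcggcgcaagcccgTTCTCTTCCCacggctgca
Rpl13a, chr7:45128726-45128775, minus strand: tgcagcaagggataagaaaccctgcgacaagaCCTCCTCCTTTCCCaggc
Rpl35, chr2:39005112-39005161, minus strand: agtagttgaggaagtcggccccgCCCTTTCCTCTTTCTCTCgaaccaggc
Rps27, chr3:90213629-90213678, minus strand: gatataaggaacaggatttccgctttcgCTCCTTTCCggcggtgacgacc
Rps27l, chr9:66946056-66946105, plus strand: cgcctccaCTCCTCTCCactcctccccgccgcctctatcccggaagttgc
Rps25, chr9:44407684-44407733, plus strand: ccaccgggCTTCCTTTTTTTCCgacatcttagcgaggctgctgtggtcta
Rps28, chr17:33824543-33824592, minus strand: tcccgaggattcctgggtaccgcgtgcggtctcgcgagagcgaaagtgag
Rpl7l1, chr17:46782637-46782686, minus strand: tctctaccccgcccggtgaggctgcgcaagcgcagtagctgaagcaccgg
The Rps28 and Rpl7l1 windows hold no such run, and both genes rose after hepatectomy (values below). The Rps25 and Rps27l windows hold such runs, and the genes' highest time means were at 0.25 d and at 3 d.

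The ribosomal protein genes shared a small, broad rise that started between 0.25 and 0.5 d, stood highest from 0.75 to 1.5 d and was not seen in the median at 4 d. Of the 46 members, 43 reached a log2 value of 5 on at least 3 arrays and were tested. Over these 43 the median difference from 0 d was -0.03 at 0.25 d, 0.21 at 0.5 d, 0.29 at 0.75 d, 0.28 at 1 d, 0.28 at 1.5 d, 0.22 at 2 d, 0.17 at 3 d, 0.00 at 4 d, -0.04 at 7 d and -0.06 at 14 d. The highest of these medians equals a 1.22-fold difference. The median over all 13642 tested genes lay between -0.05 and 0.00 at each of these times. Most members are among the brightest genes of the liver, so they were also set beside the 628 other genes with a mean of 11 or more, whose medians were -0.14 at 0.25 d, -0.12 at 0.5 d, -0.08 at 0.75 d, -0.06 at 1 d, -0.04 at 1.5 d, -0.06 at 2 d and -0.08 at 3 d. When arrays were centred on those bright genes, the median over all tested genes moved up by 0.11 at 0.25 d, 0.12 at 0.5 d, 0.12 at 0.75 d and 0.11 at 3 d, and the members' median at 0.75 d was 0.40. The members' signs at 0.25 d and 14 d turned under that centring, to 0.08 and 0.00.

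The rise was visible array by array. The median over the 32 members with a mean of 11 or more was 12.56, 12.57 and 12.58 on the 0.75 d arrays and 12.20 on each of the 3 arrays at 0 d. The 0.75 d and 0 d arrays did not overlap. The same measure over the 628 other bright genes ran from 11.80 to 11.84 at 0.75 d and from 11.92 to 11.96 at 0 d, the opposite direction. These are shares of the labelled RNA of a whole liver sample, in which fewer cells of a type and less RNA per cell cannot be told apart. RMA (robust multi-array averaging) also makes the value distributions of arrays alike, so a change common to all genes would not show.

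**Figure D1:**
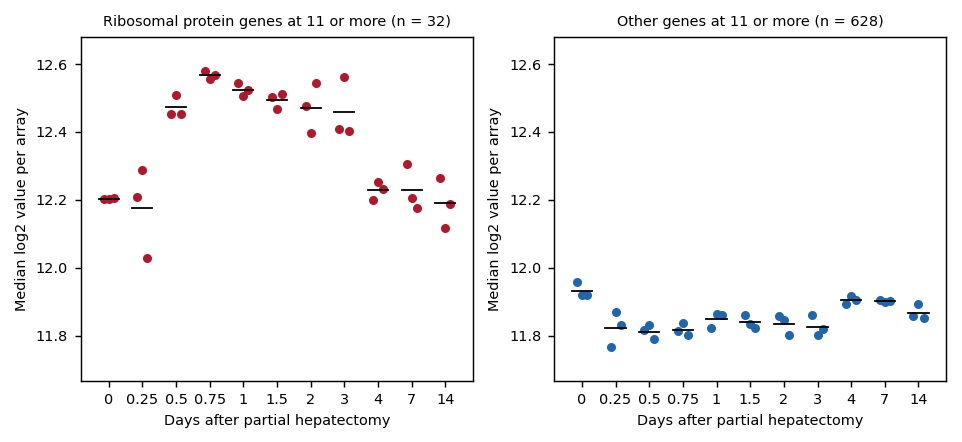
Median log2 value of each array over the 32 ribosomal protein genes with a mean of 11 or more (left, red) and over the 628 other genes as bright (right, blue), by days after partial hepatectomy. Points are arrays and lines are means of 3 arrays. The ribosomal protein medians lie at 12.56 to 12.58 at 0.75 d and at 12.20 at 0 d, and 1 array at 0.25 d lies lowest at 12.03.

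Single members were called by limma at a Benjamini-Hochberg adjusted p under 0.05, adjusted over all 13642 tested genes. Over the whole course 41 of the 43 members (95.3%) varied by the moderated F-test, against 562 of the 628 bright genes (89.5%) and 69.4% of all tested genes, so variation as such is common in these livers. The direction was less common. At 0.5 d 23 members were higher and 0 lower, where 15.8% of all tested genes were higher and 19.4% lower. At 0.75 d 28 members were higher and 0 lower, beside 9.84% of all genes higher and 12.7% lower. At that time 128 of the 628 other bright genes were higher and 193 lower. At 1 d 26 members were higher and 0 lower, with 8.16% and 9.55% of all genes. At 1.5 d the counts were 27 and 0, with 8.33% and 11.7%. At 2 d they were 22 and 0, with 11% and 11.6%. At 3 d they were 19 and 0, with 10.2% and 10.9%. At an unadjusted p under 0.05 no member was lower from 0.5 to 2 d and 1 was at 3 d. The count at 3 d depended on single arrays: it was 10 without 3 d replicate 2, 12 without 0 d replicate 1, 11 without 0 d replicate 2 and 12 without 0 d replicate 3. These 6 comparisons share the 0 d livers, so they do not stand for separate evidence.

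**Figure D2:**
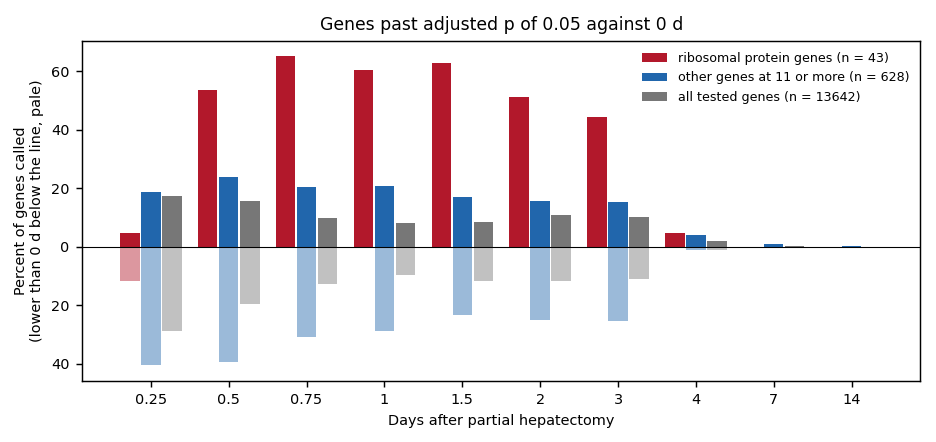
Percent of genes past an adjusted p of 0.05 against 0 d, by days after partial hepatectomy, for 43 ribosomal protein genes (red), 628 other bright genes (blue) and all 13642 tested genes (grey). Solid bars are higher than 0 d and pale bars below the line are lower; 65.1% of the ribosomal protein genes were higher at 0.75 d, and none was lower from 0.5 d on.

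Both subunits took part, and the difference between them was not tested. At 0.75 d the median difference was 0.32 over the 22 large-subunit members tested and 0.28 over the 21 small-subunit members. The large-subunit genes higher at that time were Rpl4, Rpl6, Rpl7, Rpl7a, Rpl7l1, Rpl8, Rpl10a, Rpl11, Rpl12, Rpl13a, Rpl22l1, Rpl27, Rpl35, Rpl37 and Rpl41. The small-subunit genes were Rps3a1, Rps4x, Rps6, Rps7, Rps9, Rps10, Rps18, Rps19, Rps20, Rps26, Rps27, Rps28 and Rps29. Among these, Rps6 is the classical substrate of the S6 kinases, and Rpl11 can bind and restrain Mdm2 when ribosome assembly is disturbed. Of the 43 members, 14 had their highest time mean at 0.75 d, 9 at 1 d, 9 at 1.5 d, 4 at 2 d and 3 at 0.5 d. The exceptions were Rps15 and Rps27l, highest at 3 d, Rps25, highest at 0.25 d, and Rps4l, highest at 4 d. The lowest time mean fell at 0.25 d for 13 members and at 4 d or later for 26. Ranges of time means were narrow, with a median of 0.47 and limits of 0.23 and 0.97. The 30 tested members with a C or T run near their start had a median difference of 0.34 at 0.75 d with 19 of 30 called, and the 7 matched members without one had 0.24 with 5 of 7 called. That split was made with the values known and was not tested.

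**Figure D3:**
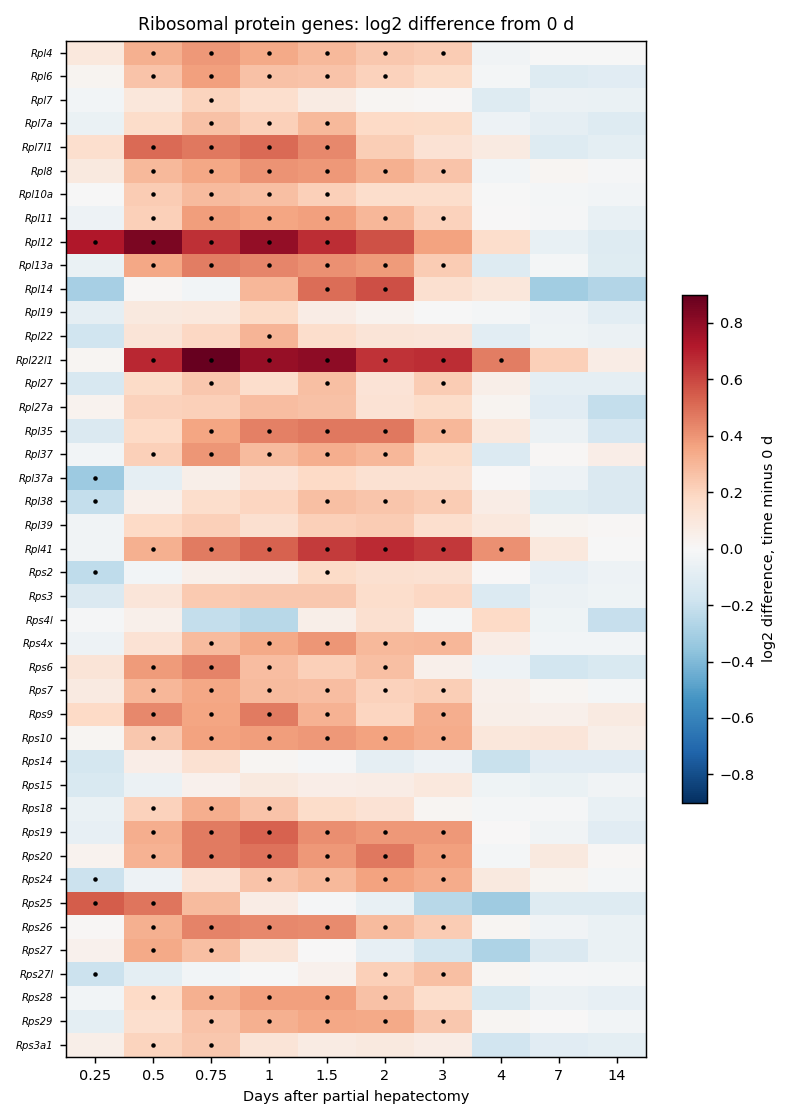
Difference of each tested ribosomal protein gene from 0 d on the log2 scale (colour, red higher and blue lower) at 10 times after partial hepatectomy, large subunit above and small subunit below. Dots mark an adjusted p under 0.05; Rpl22l1 reaches 0.90 at 0.75 d, and 2 genes carry a dot at 4 d.

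Other measures of the same arrays moved at several of these times. The 3' minus 5' signal of beta-actin is a rough gauge of how complete the labelled RNA was. It was 0.46 to 0.62 at 0.5 d, 0.55 to 0.75 at 0.75 d and 0.49 to 0.56 at 1 d, against 0.74 to 0.94 at 0 d. This signal was 0.49 to 0.73 at 1.5 d and 0.55 to 0.67 at 3 d, but 0.75 to 0.88 at 2 d, inside the 0 d range. For Gapdh it was -0.22 to -0.19 at 0.75 d and -0.17 to -0.04 at 0 d. The control probe set for 18S ribosomal RNA ran from 11.64 to 12.29 at 0.75 d and from 10.24 to 12.15 at 0 d, so these groups overlapped. Of 3 erythroid markers tested, out of 5 measured, 2 were lower at 0.75 d, and the summed level of the 5 was 24.8 to 25.9 then and 29.4 to 29.6 at 0 d. Of all tested genes 9.84% were higher and 12.7% lower at 0.75 d. Beside these shares, of 8 Kupffer cell markers 1 was higher and 2 lower, and of 8 neutrophil and monocyte markers 1 was higher. Of 9 stellate cell markers 2 were lower, and of 8 sinusoidal endothelial markers 1 was lower. Their part in the members' rise was not tested. Cell division genes rose later than the members. The summed level of 7 proliferation markers was 42.2 to 43.4 at 0.75 d against 48.4 to 52.5 at 0 d, and 3 of the 7 were lower. At 1.5, 2 and 3 d 6 of the 7 were higher, where 8.33%, 11% and 10.2% of all tested genes were. The sums at 2 d were 58.8 to 73.1. The members were still raised at these times, so the courses overlapped.

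Rpl22l1, a close relative of the large-subunit gene Rpl22 that can replace its product in the ribosome, had the widest range of time means (0.90) of the members with a mean of 7 or more. Its arrays read 10.52, 10.43 and 10.23 at 0 d, 10.39, 10.63 and 10.22 at 0.25 d, 11.01, 11.23 and 10.98 at 0.5 d, 11.45, 11.24 and 11.18 at 0.75 d and 11.26, 11.04 and 11.23 at 1 d. From 0.5 d on every liver stood above all 0 d livers until 4 d, whose arrays read 10.73, 10.82 and 11.01. The difference from 0 d was 0.90 ± 0.12 at 0.75 d (1.86-fold, limma adjusted p = 3.7e-06) and 0.66 ± 0.12 at 3 d (adjusted p = 0.00027). At 4 d it was 0.46 ± 0.12 (adjusted p = 0.0324), a call lost when any single array of 4 d or 0 d was left out. By 14 d the arrays read 10.48, 10.36 and 10.53, overlapping those at 0 d. Rpl22 itself was not called at 0.75 d: its arrays read 12.26, 12.23 and 12.22 at 0.75 d against 11.97, 12.11 and 12.08 at 0 d, a difference of 0.18 ± 0.08 (adjusted p = 0.121). At 1 d the Rpl22 difference was 0.30 ± 0.08 (adjusted p = 0.0135).

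Rpl41, whose product is a very small and highly basic large-subunit protein, had its highest time mean at 2 d. It read 12.66, 12.65 and 12.64 at 0 d, 13.09, 13.06 and 13.21 at 0.75 d, 13.26, 13.27 and 13.43 at 2 d and 13.09, 13.02 and 13.08 at 4 d. All livers from 0.5 to 4 d lay above those at 0 d. The difference was 0.53 ± 0.10 at 1 d (adjusted p = 0.000318), 0.63 ± 0.10 at 1.5 d (adjusted p = 6.27e-05), 0.67 ± 0.10 at 2 d (1.59-fold, adjusted p = 1.31e-05) and 0.63 ± 0.10 at 3 d (adjusted p = 3.94e-05). At 4 d it was still 0.41 ± 0.10 (adjusted p = 0.0192), a call lost in 3 of the 6 cases of leaving out 1 array of either time. These values rest on an _x_at probe set, whose probes can also bind related transcripts. The other bright Rpl41 set, also an _x_at set, with a mean of 12.56, gave smaller differences of 0.20 at 0.75 d, 0.37 at 2 d and 0.10 at 4 d. The one Rpl41 set free of that mark was dim, with a mean of 5.72, and stood at 0.33 at 2 d (adjusted p = 0.12) and -0.22 at 4 d, and none of the Rpl41 calls named here from 1 to 4 d was kept with it.

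Rpl13a, a large-subunit protein known in human myeloid cells to leave the ribosome and silence inflammatory messages, had the largest F statistic of the members. Its arrays read 13.29, 13.29 and 13.37 at 0.75 d against 12.83, 12.97 and 12.59 at 0.25 d, a difference of 0.52 ± 0.08 (adjusted p = 1.74e-05) without overlap. Rps19, the small-subunit gene first found mutated in human Diamond-Blackfan anaemia, read 11.43, 11.50 and 11.53 at 0.75 d against 11.05, 11.13 and 10.65 at 0.25 d, a difference of 0.55 ± 0.10 (adjusted p = 0.000178). It was also called higher at 3 d, with 11.37, 11.52 and 11.34 at 3 d against 11.07, 11.06 and 10.93 at 0 d (0.39 ± 0.10, adjusted p = 0.0062). Rps28, a small-subunit gene singled out after its values were seen for its tight replicates, read 13.17, 13.18 and 13.16 at 0.75 d against 12.76, 12.90 and 12.90 at 0 d. Its groups did not overlap, and it was among the genes called at that time.

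Rpl7l1, a relative of Rpl7, rose early. It read 9.28, 9.43 and 9.35 at 0.5 d against 8.95, 8.71 and 8.88 at 0 d, a difference of 0.51 ± 0.09 (adjusted p = 0.000104), and stood 0.47 ± 0.09 higher at 0.75 d (adjusted p = 0.000489). Rpl7 read 12.07, 12.05 and 12.07 at 0.75 d against 11.83, 11.88 and 11.88 at 0 d, a called difference of 0.20 ± 0.05 (adjusted p = 0.00911). Whether such relatives differ from each other was not tested. Rps4x, the X-linked gene of the small-subunit protein S4, read 12.79, 12.75 and 12.78 at 0.75 d against 12.42, 12.58 and 12.46 at 0 d (0.28 ± 0.07, adjusted p = 0.00462) and was highest at 1.5 d.

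A pair of large-subunit genes was seen through dim probe sets. Rpl12, which sits at the base of the ribosomal stalk, read 7.09, 7.24 and 7.27 at 0.5 d against 6.29, 6.17 and 6.59 at 0 d, a difference of 0.85 ± 0.22 (adjusted p = 0.0037). Its differences of 0.66 ± 0.22 at 0.75 d (adjusted p = 0.032), 0.79 ± 0.22 at 1 d (adjusted p = 0.0137) and 0.67 ± 0.22 at 1.5 d (adjusted p = 0.0332) were each lost when some single arrays were left out. Rpl14 passed the filter on 27 of 33 arrays, near its edge. It read 5.76, 5.96 and 5.72 at 2 d against 5.30, 5.07 and 5.32 at 0 d (0.58 ± 0.12, adjusted p = 0.00112), while its arrays at 0.75 d overlapped those at 0 d.

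At 0.25 d the members' few calls were split. By limma 5 members were lower and 2 higher than at 0 d, where 28.8% of all tested genes were lower and 17.2% higher. That split depended on the scaling: quantile normalization gave 4 higher and 4 lower, and centring on the bright genes 8 higher and 0 lower. These scalings also moved the median over all tested genes up, by 0.07 and 0.11. The shares of all genes called under them are not given here, so these counts cannot be set beside a share. Rpl37a, a large-subunit zinc-binding protein, read 12.33, 12.44 and 12.03 at 0.25 d against 12.53, 12.69 and 12.56 at 0 d (-0.33 ± 0.09, adjusted p = 0.00336). Rps2, a small-subunit protein near the message entry channel, read 12.69, 12.79 and 12.66 at 0.25 d against 12.91, 12.99 and 12.94 at 0 d (-0.23 ± 0.06, adjusted p = 0.0031). Rpl38, which in mouse embryos is needed for translation of some Hox messages, read 12.65, 12.64 and 12.41 at 0.25 d against 12.77, 12.78 and 12.79 at 0 d (-0.21 ± 0.08, adjusted p = 0.0222). Rps2 and Rpl38 have 1 set each, an _x_at set, whose probes can also bind related transcripts. The remaining genes called lower were Rps24 and Rps27l, also read by _x_at sets. On 0.25 d replicate 3 the bright members had a median of 12.03, against 12.21 and 12.29 on the other arrays of that time. Without that array the members' median difference was 0.05, the Rpl37a difference was -0.21 and still called, and the Rpl38 difference was -0.13 and no longer called. Rpl38 also lost its call without 0 d replicate 3. Centred on the bright genes, Rpl37a (-0.22), Rps2 (-0.12) and Rpl38 (-0.10) were not called. The genes called higher were Rpl12 and Rps25, both seen through dim probe sets. For Rpl12 the groups overlapped: 0.25 d replicate 3 read 6.53 and 0 d replicate 3 read 6.59. Rps25, a small-subunit gene, read 7.65, 7.48 and 7.37 at 0.25 d against 6.87, 7.06 and 6.93 at 0 d (0.55 ± 0.12, adjusted p = 0.000445). It was back at 7.07, 6.94 and 7.06 by 1 d.

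Rps27l and Rps27 code for closely similar small-subunit proteins, and Rps27l is known as a p53 target. Rps27l, through its brightest set, did not share the early rise. That set is an _x_at set, 1 of 3 of the gene, whose probes can also bind related transcripts. It read 12.04, 12.00 and 11.95 at 0.75 d against 12.04, 11.96 and 12.07 at 0 d (-0.03 ± 0.08, adjusted p = 0.853). It was highest at 3 d, with 12.36, 12.30 and 12.21 (0.27 ± 0.08 from 0 d, adjusted p = 0.0126), and also called at 2 d (0.21 ± 0.08, adjusted p = 0.046). Rps27, through a dim probe set, had its highest time mean at 0.5 d, reading 7.09, 7.13 and 7.11 at 0.5 d against 6.77, 6.83 and 6.72 at 0 d (0.34 ± 0.09, adjusted p = 0.00403). At 4 d it read 6.47, 6.50 and 6.52, below every 0 d array, but did not pass (-0.27 ± 0.09, adjusted p = 0.095).

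**Figure D4:**
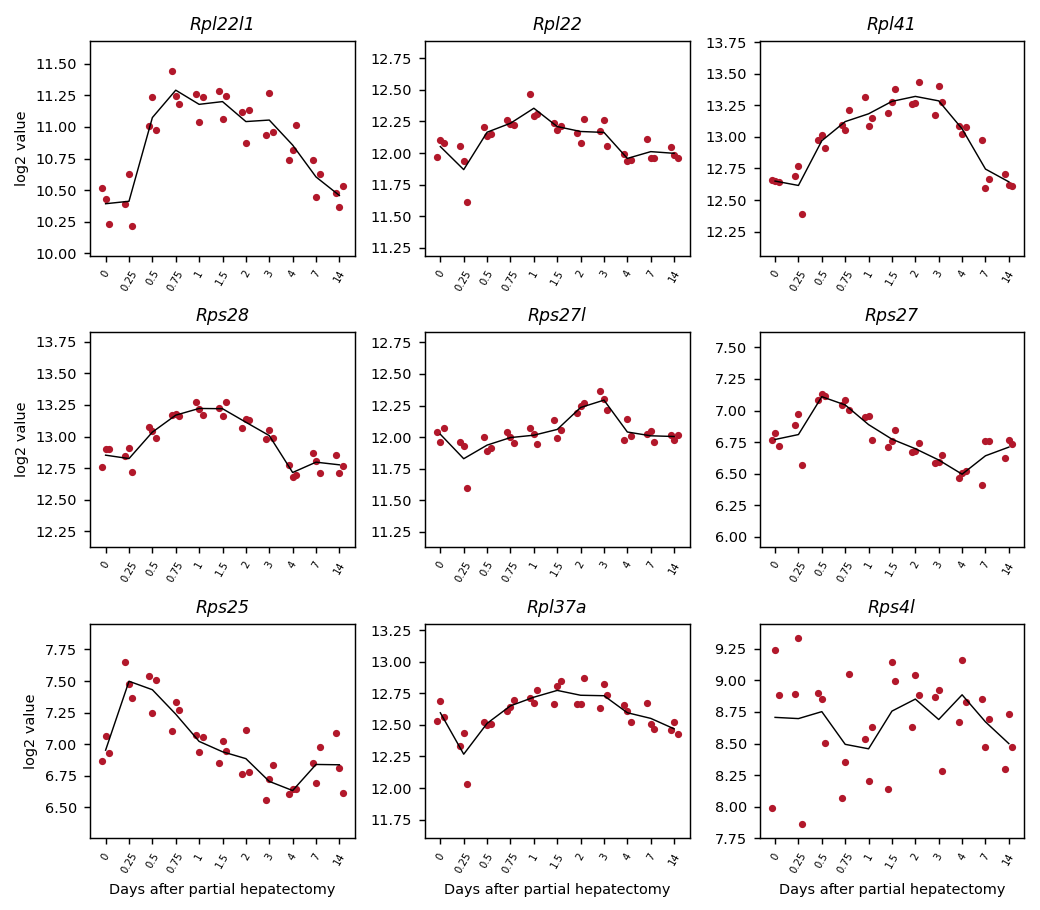
Log2 value of 9 ribosomal protein genes on each of 33 arrays (points) and the mean of 3 arrays per time (line), by days after partial hepatectomy, on axes of equal height. Rpl22l1 is highest at 0.75 d, Rpl41 at 2 d, Rps27l at 3 d and Rps25 at 0.25 d, and the Rps4l arrays scatter from 7.86 to 9.34.

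A few members moved little or could not be read. Rps15 had the smallest range of time means (0.23), read 11.78, 11.84 and 11.87 at 0.75 d against 11.80, 11.83 and 11.73 at 0 d, and did not pass the F-test (adjusted p = 0.242). Rpl39, through a dim probe set with a mean of 6.28, and Rpl19 had ranges of 0.26 and 0.27. Neither was called at any time against 0 d. Both passed the F-test (adjusted p = 0.0482 and 0.0192) and were called higher at 0.75 d against 0.25 d (0.25 and 0.18). Rps4l, a relative of Rps4x, missed the F-test like Rps15 (adjusted p = 0.941). Its arrays read 7.99, 9.24 and 8.89 at 0 d alone. Its standard error of 0.32 would hide a shift of the size seen in the others. Rpl3l, known as a striated muscle form, and Rpl39l, known as a testis form in mouse, were near the array floor, with a single Rpl39l array (5.59, at 2 d) above 5. The only single-symbol probe set of Rps16, an ordinary small-subunit gene, read 2.76 to 3.88, so its message was not measured here. None of these last 3 was tested.

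From 4 d on the members' median lay close to its 0 d level. At 4 d 2 members were higher (Rpl22l1 and Rpl41) and 0 lower, where 1.88% of all genes were higher and 0.975% lower, and at an unadjusted p under 0.05 the counts were 2 and 6. At 7 d limma called 0 members, beside 0.125% of all genes higher and 0.0586% lower, and at 14 d also 0, beside 0.0147% and 0%. At an unadjusted p under 0.05, 1 member was lower at 7 d and 1 at 14 d. At 14 d 37 of 43 differences were below 0, in a comparison whose median over all genes was -0.05, and centring on the bright genes turned the members' median to 0.00. Other settings of the fit also called 0 members at these times.

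Some comparisons do not use the 0 d livers. Against 0.25 d, whose samples belong to the same later run of numbers, the 0.75 d livers had 35 members higher and 0 lower, where 21.1% of all genes were higher and 9.41% lower. The median member difference was 0.33, and Rpl22l1 differed by 0.88 ± 0.12 (adjusted p = 5.29e-06). The climb was not particular to the members. Of 76 mitochondrial ribosomal proteins 56 were higher and 0 lower in the same comparison, with a median difference of 0.32. At 1.5 d, in the later run, no member differed from the mean of its neighbours 1 d and 2 d, in the earlier run: limma called 0, the count at an unadjusted p under 0.05 was also 0, and 0.00733% of all genes were higher and 0.0147% lower. The median member difference there was 0.02. At 14 d, compared with 2 d, 27 members were lower and 0 higher, where 15.1% of all genes were lower and 12.2% higher. The median member difference was -0.31. Related lists fell as well. Of 30 ribosome assembly genes 15 were lower and 0 higher, with a median of -0.31. Of 76 mitochondrial ribosomal proteins 28 were lower and 0 higher, with a median of -0.18. Rpl35, a protein at the exit of the nascent chain tunnel, read 11.61, 11.51 and 11.69 at 14 d against 12.24, 12.17 and 12.28 at 2 d, a difference of -0.63 ± 0.10 (adjusted p = 4.79e-05). Rpl41 differed by -0.68 ± 0.10 (adjusted p = 1.1e-05; -0.25 and not called with its set free of the _x mark) and the dim Rpl14 by -0.85 ± 0.12 (adjusted p = 1.55e-05).

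Other translation genes were followed on lists, to be read against the shares of all tested genes called at the same time: 17.2% higher and 28.8% lower at 0.25 d, 15.8% and 19.4% at 0.5 d, and 9.84% and 12.7% at 0.75 d. Of 4 measured ribosomal proteins named outside the symbol rule, 3 were higher at each time from 0.5 to 2 d. At 0.75 d Rplp0, the scaffold of the ribosomal stalk, was higher by 0.54 ± 0.07 (adjusted p = 1.45e-06), Rplp2 of the stalk by 0.48 ± 0.09 (adjusted p = 0.000512) and Rpsa, also called the laminin receptor, by 0.38 ± 0.08 (adjusted p = 0.00158). Of 18 translation factors and other genes with TOP messages, 9 were higher and 1 lower at 0.5 d, with a median difference of 0.19. At 0.75 d 5 of the 18 were higher and 2 lower, with a median of 0.02. Among them Eef1b2, an elongation factor subunit, was higher by 0.51 ± 0.08 (adjusted p = 2.95e-05) and Eif4b, a helper of the initiation helicase, lower (-0.83 ± 0.09, adjusted p = 3.3e-07).

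Many ribosome assembly genes were already higher at 0.25 d. Of 30, 14 were higher and 1 lower at 0.25 d, with a median difference of 0.31, and 19 and 1 at 0.5 d, with a median of 0.40. By 0.75 d 8 were higher and 0 lower. Nop58, a core protein of small nucleolar particles, was 1.56 ± 0.25 above 0 d at 0.25 d (adjusted p = 2.06e-05) and Ltv1, which helps export the small subunit, 1.13 ± 0.13 (adjusted p = 2.99e-07). Of 76 mitochondrial ribosomal proteins, which serve the separate ribosomes of mitochondria, 44 were lower and 3 higher at 0.25 d, with a median of -0.26. At 0.75 d 15 were higher and 6 lower, with a median of 0.06. Mrpl14 was among those lower (-0.66 ± 0.12, adjusted p = 0.000183), and Mrps18b rose by 0.79 ± 0.13 (adjusted p = 7.32e-05). Of 17 genes of mTORC1 and translation control, 1 was higher and 2 lower at 0.75 d, near the shares of all tested genes (9.84% and 12.7%). Eif4e, the cap-binding protein, was higher by 0.76 ± 0.11 (adjusted p = 1.09e-05), and Deptor, an mTOR inhibitor, lower (-1.12 ± 0.15, adjusted p = 5.77e-06). No test of the difference between these lists and the cytosolic set was made.

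The members had 101 single-symbol probe sets, and 23 members had several. Of the 65 probe sets with a mean of 10 or more, from 33 genes, 61 were above 0 d at 0.75 d and 15 were above it at 0.25 d, with a median difference of -0.06 at 0.25 d. The 15 sets with a mean of 5 to 7, from 13 genes, had a median of 0.39 at 0.25 d. These bands were set after the values were seen, and no test was made. In Rps9, a small-subunit gene, the dim set read 7.07, 6.76 and 6.32 at 0.25 d against 5.77, 5.92 and 6.0 at 0 d, without overlap. The brightest Rps9 set read 12.20, 12.26 and 12.03 at 0.25 d against 11.95, 12.07 and 11.93 at 0 d, where the groups overlapped. The other bright Rps9 set read 10.99, 10.99 and 10.80 at 0.25 d against 10.69, 10.61 and 10.76 at 0 d, without overlap. Rps3, whose protein sits at the message entry, has 2 dim sets that went different ways. One read 6.60, 6.39 and 6.63 at 0.25 d against 6.07, 6.08 and 5.61 at 0 d, and the other read 6.13, 6.26 and 5.57 at 0.25 d against 6.23, 6.21 and 6.11 at 0 d. The bright Rps3 set read 11.81, 11.78 and 11.43 at 0.25 d against 11.80, 11.86 and 11.75 at 0 d, with overlap. An Rpl22 set of middling signal read 7.11, 7.30 and 6.98 at 0.25 d against 8.23, 8.36 and 7.99 at 0 d, and the other 2 Rpl22 sets were also below 0 d then (-0.18 and -0.13). At 0.75 d its difference was -0.76, whereas those of the other sets were 0.18 and 0.32. Which transcripts these sets bind was not tested. Of the chosen sets, 13 carry the _x mark, 2 the _s mark (shared by several genes) and 16 the _a mark (several transcripts of a gene). Near-identical copies and processed pseudogenes of ribosomal protein genes may therefore share in the signal of many members.

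**Figure D5:**
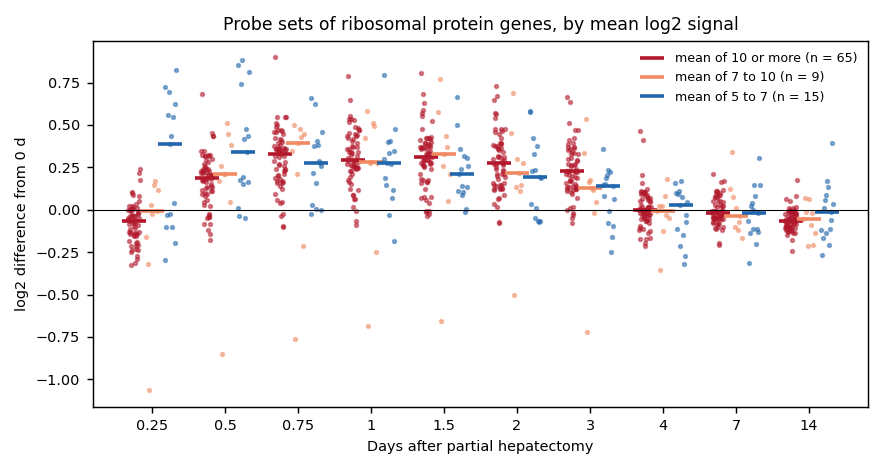
Difference from 0 d on the log2 scale of the probe sets of ribosomal protein genes, by days after partial hepatectomy and by mean signal of the set. Points are probe sets and bars medians. At 0.25 d the median is -0.06 for the 65 sets of 10 or more (red) and 0.39 for the 15 sets of 5 to 7 (blue). At 0.75 d the medians of all 3 bands lie above 0, while single sets lie below it. Sets with a mean under 5 are not drawn.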

How the data were processed

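Total RNA (5 µg) from 33 mouse livers was labelled with biotin by 3' amplification for Affymetrix mouse arrays, per the labels' protocols. The authors deposited log2 values summarized with RMA, per the submitters' processing notes, whose version is not given in the sources used here. Probe sets were named from the platform annotation where it gave 1 symbol (34945 of 45101), and the set with the highest mean stood for each gene. The test was limma's (version 3.58.1 under R 4.3.3), two-sided, with 1 coefficient per time, eBayes moderation, and 22 residual and 3.69 prior degrees of freedom. It covered all 33 arrays and the 13642 genes that reached 5 on 3 arrays or more. Adjustment followed Benjamini and Hochberg over those genes, at 0.05. The fit was tested on simulated data with independent noise for each gene, which cannot show how it treats a shift shared by genes. The number of arrays limits the precision. P-values weigh a difference against the spread between the 3 livers of the same time. That spread was pooled over all 33 arrays, not taken from the compared times alone.

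Members and gene lists were chosen with earlier results of these data known. Genes named were the 3 highest and 3 lowest called differences per comparison whose arrays did not overlap, members with an l, l1 or x suffix and their namesakes, the 3 with the smallest range, those near the filter, and up to 4 per list. Replicate numbers do not pair livers: deviations of same-numbered arrays correlated between -0.35 and 0.39. Alternatives were other scalings, filters, probe set choices, fits and leaving out each array. Sequences came from RefSeq tables of GRCm38.p6, where letters were counted by pattern matching. Start regions on chromosome 18 were not used here.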

Additional observations from a re-analysis of the deposited data

How the results depend on the processing

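The direction of the shared rise from 0.5 to 3 d was kept under every alternative run. With quantile normalization the median member difference was 0.28 at 0.5 d, 0.36 at 0.75 d, 0.33 at 1.5 d and 0.26 at 3 d. Centred on the bright genes it was 0.33 at 0.5 d, 0.40 at 0.75 d, 0.36 at 1 d, 0.37 at 1.5 d, 0.32 at 2 d and 0.28 at 3 d, and it turned to 0.078 at 0.25 d and 0.0041 at 14 d. With probe sets without the _x or _s mark it was 0.33 at 0.75 d, and 12 members were called at 3 d and 1 at 4 d, and the Rpl41 difference at 4 d was -0.22. When the probe sets of each gene were averaged, 11 members were called at 0.25 d (4 higher and 7 lower) and 1 at 4 d. When the fit held just the arrays of the times compared, fewer arrays estimated the spread, and the counts were 1 at 0.25 d, 9 at 0.5 d, 17 at 1 d, 9 at 2 d, 7 at 3 d, 0 at 4 d, 15 for 0.75 d against 0.25 d and 14 for 14 d against 2 d. Leaving out each array in turn gave 10 to 18 members called at 3 d, 0 to 1 at 4 d, and a median of -0.32 to -0.25 for 14 d against 2 d. Of 180 such values of named genes, 22 lost their call and 0 changed sign. Of 30 values of named genes, 5 lost their call when the fit held just the arrays compared (Rpl37a, Rps2 and Rpl38 at 0.25 d, Rpl22l1 and Rpl41 at 4 d), 3 with centring on the bright genes (Rpl37a, Rps2 and Rpl38 at 0.25 d), 1 with quantile normalization (Rpl38 at 0.25 d) and 1 with averaged probe sets (Rpl41 at 4 d). With sets free of the _x and _s marks, 5 of 28 lost it and 1 changed sign, all of Rpl41. Rps2 and Rpl38 at 0.25 d could not be checked this way, since each has 1 set and it carries the _x mark. The replicate block changed no call of a named gene and moved no count beyond 1.5 times (28 members called at 0.75 d, 25 at 1 d). The causes of these shifts were not tested. Signals near the floor bound what can be read for Rpl14, Rpl39l, Rpl3l and Rps16.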
